A study of Mus musculus with 14 samples.

Results

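The cytosolic ribosomal protein genes were followed as 1 family in the medial prefrontal cortex (mPFC) of naive and socially defeated mice. Members were taken by gene symbol: every Rpl or Rps gene of the cytosolic ribosome, with Rplp0, Rplp1, Rplp2 and Rpsa, and without pseudogenes. The RefSeq gene table holds 84 such genes, and 83 of them were on the array, with 171 probes, among 20887 named genes. Each gene was read from its brightest probe. Of the 83 genes, 79 were well above background on all 14 arrays. Rpl10l and Rpl7l1 were well above background on 11 arrays each: 2 of 5 naive, 6 of 6 susceptible and 3 of 3 resilient, so both entered the tests only through the defeated groups. Rpl39l was above background on 0 arrays and Rpl3l on 1, and neither was tested. The 81 tested members, of 14451 genes tested, comprised 32 genes of the small subunit and 49 of the large subunit. They include 5 of the 7 paralogues whose partner gene is also a member.

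All mice were wild-type C57BL/6, with no transgene named in the labels; age and sex are not given in the sources used here. Repeated social defeat stress exposes a mouse to an aggressor on several occasions, after which its behaviour decides its class. The 5 naive mice were only transferred between cages, 6 defeated mice were classed as susceptible and 3 as resilient. Brains were perfused 4 h after the last session, a 1.5 mm punch of mPFC was taken, and 35 ng of RNA from 1 mouse was labelled with Cy3 for each array. The punch is bulk tissue that holds several cell types. The 5 neuron markers (Rbfox3, Syt1, Snap25, Stmn2 and Tubb3) and the 5 cortical excitatory neuron markers were above background on every array. So were the 5 markers each of inhibitory neurons, astrocytes, oligodendrocytes, microglia and endothelial cells.

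Each cytosolic ribosome joins a small subunit, which decodes the mRNA, to a large subunit, which forms the peptide bond. Nearly all ribosomal proteins are present in 1 copy per ribosome, and their genes are expressed together at high level in every cell type, neurons included, where ribosomes also serve local translation in dendrites and axons. Their mRNAs typically begin with a cytosine followed by a run of pyrimidines, the 5′ terminal oligopyrimidine (TOP) tract, through which translation of these mRNAs depends on mTOR complex 1. Most of the genes have many processed pseudogenes in the mouse genome, and whether a probe also binds transcripts of these or of a paralogue was not analysed here.

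The start sites show a feature that was more frequent in these genes than in all genes, though not present in every member. RefSeq's promoter table (build GRCm38.p6) held entries for 63 of the 83 genes. A tract of C followed by at least 5 more C or T on the transcribed strand, beginning within 15 bases of the annotated start, was found in 39 of the 63 (61.9%), against 29.5% of 27025 genes with an entry. In the windows below, 30 bases before and 30 bases after the start are given 5′ to 3′ on the transcribed strand, with the tract in capitals. Shown first is Rpl4, which was lower in susceptible mice without any correction for slide, in a call that depended on single mice. Its tract lies wholly before the annotated start. Then come Rps27, Rpl39 and Rpl13a, whose difference, read from the probe used, exceeded that of the family. Rps3 and Rpsa, read from the probe used, also fell below the family in susceptible mice with slide as a block. In resilient mice neither was called below it in that fit. Both had no tract beginning within 15 bases of the annotated start. Rpl7l1 had no tract either. It was higher relative to the family but entered the tests only through the defeated groups, so this is not read as a departure.
Rpl4 (chr9:64173357-64173416, plus strand): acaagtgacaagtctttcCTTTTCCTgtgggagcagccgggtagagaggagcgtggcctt
Rps27 (chr3:90213619-90213678, minus strand): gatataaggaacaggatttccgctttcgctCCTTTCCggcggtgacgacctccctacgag
Rpl39 (chrX:37085193-37085252, minus strand): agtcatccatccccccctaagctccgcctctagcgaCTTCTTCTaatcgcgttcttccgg
Rpl13a (chr7:45128716-45128775, minus strand): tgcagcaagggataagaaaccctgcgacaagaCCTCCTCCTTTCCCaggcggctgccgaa
Rps3 (chr7:99483680-99483739, minus strand): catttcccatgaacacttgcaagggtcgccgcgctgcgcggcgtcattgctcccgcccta
Rpsa (chr9:120127736-120127795, plus strand): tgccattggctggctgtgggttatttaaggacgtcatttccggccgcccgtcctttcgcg
Rpl7l1 (chr17:46782627-46782686, minus strand): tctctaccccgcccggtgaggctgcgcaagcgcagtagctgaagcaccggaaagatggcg

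Other short words were searched on both strands of the whole 300-base entry (250 bases before to 50 after the start). The ETS word CCGGAAG was present in 39.7% of members against 9.93% of all genes, the YY1 word AAGATGG in 15.9% against 7.28%, the SP1 word GGGCGG in 60.3% against 38.2%, and TATAAA in 12.7% against 15.7%. The ETS and YY1 words can overlap, since the first ends with the letters that begin the second. These matches describe the letters of the annotated windows and say nothing of binding. The 38 tested members with a tract and the 23 without one had nearly the same median difference from naive mice, −0.41 against −0.38 log2 in susceptible mice and −0.51 against −0.48 in resilient mice.

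Signals were read as log2 intensity minus the 75th percentile of the same array, so a level of 7 lies 7 doublings above that percentile. Levels of different genes are not compared, because probes differ in how strongly they bind. The arrays lay on 3 slides: slide 1 held naive 1, susceptible 1 and 2 and resilient 1 and 2, slide 2 held naive 2 and 3, susceptible 3 and 4 and resilient 3, and slide 3, scanned on another day, held naive 4 and 5 and susceptible 5 and 6. Naive samples always occupied row 1 of a slide and defeated ones row 2, so the effect of the row and that of defeat cannot be told apart. Of the probes, 48.0% to 65.4% were well above background, and 0 spots were saturated. The 75th percentile itself, a measure of array brightness, was 7.30, 7.35, 7.24, 8.53 and 8.63 in naive 1 to 5, between 7.68 and 9.23 in susceptible and between 7.95 and 8.17 in resilient mice. On slides 1 and 2 every naive array was therefore dimmer than every array of a defeated mouse.

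The family as a whole was highest in 2 naive mice. Its median level was 7.06, 7.31, 7.61, 6.92 and 7.004 in naive 1 to 5 (mean 7.18 ± 0.28, SD, n = 5). In susceptible mice it ranged from 6.61 to 7.01 with a median of 6.94 (mean 6.86 ± 0.17, SD, n = 6), and in resilient mice it was 6.66, 6.80 and 6.81 (mean 6.76 ± 0.085, SD, n = 3). Naive 3 and naive 2, both on slide 2, stood above all other arrays, naive 4 and naive 5 lay within the range of the susceptible mice, and all resilient mice lay below all naive mice. Both subunits followed the same pattern: the small subunit median averaged 7.23 ± 0.38 in naive, 6.82 ± 0.15 in susceptible and 6.71 ± 0.089 in resilient mice (SD), and the large subunit median 7.18 ± 0.28, 6.88 ± 0.17 and 6.77 ± 0.093.

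**Figure D1:**
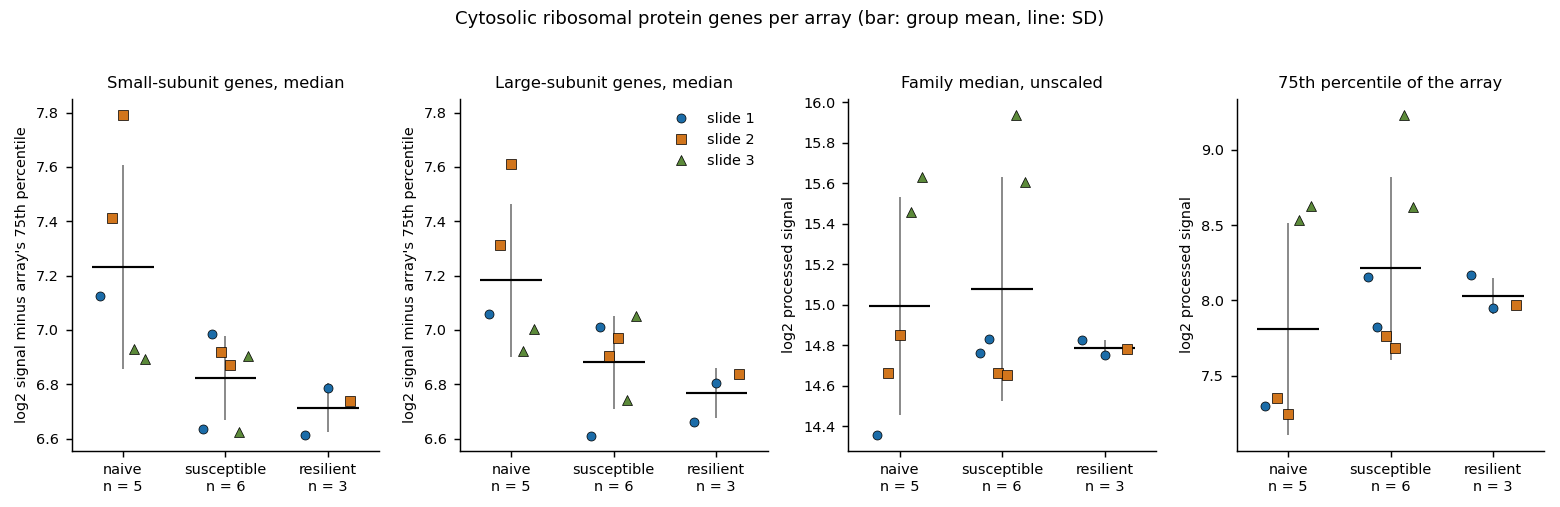
Median log2 level of the small and large subunit genes, of all members before scaling, and the 75th percentile of each array, by group, with 1 point per mouse coloured by slide, a bar at the group mean and a line of 1 SD. The scaled medians of naive 2 and naive 3 lie highest, while the unscaled family medians of the groups overlap, with means of 14.99 in naive, 15.08 in susceptible and 14.79 in resilient mice.

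The pattern rests on the scaling between arrays. Before the 75th percentile was subtracted, the median log2 signal of the family was 14.4, 14.7, 14.9, 15.5 and 15.6 in naive 1 to 5, and its mean was 15.08 ± 0.55 in susceptible and 14.79 ± 0.037 in resilient mice (SD). On slide 1 the unscaled mean was 14.36 in the naive mouse and 14.80 in the susceptible mice, on slide 2 it was 14.76 and 14.66, and on slide 3 it was 15.55 and 15.77. The lower scaled levels of defeated mice are thus levels relative to the rest of each array. In bulk tissue, fewer cells of a type and less RNA per cell cannot be told apart.

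Members moved together from mouse to mouse. The 76 members that are not paralogues had a median SD of 0.317 log2 over the 14 arrays (range 0.181 to 0.521). After each array was centred on the family median the SD was 0.132 (range 0.0571 to 0.294). Naive 3 was the highest array for 78 of the 81 members, and naive 2 and naive 3 were the highest pair for 77. Naive 1 was above the 14-array mean for 76 members, naive 4 for 43 and naive 5 for 40, whereas resilient 1, 2 and 3 were above it for 1, 2 and 2. The susceptible mice were uneven: susceptible 1 was above the mean for 1 member, susceptible 5 for 4, and susceptible 2 for 48.

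**Figure D2:**
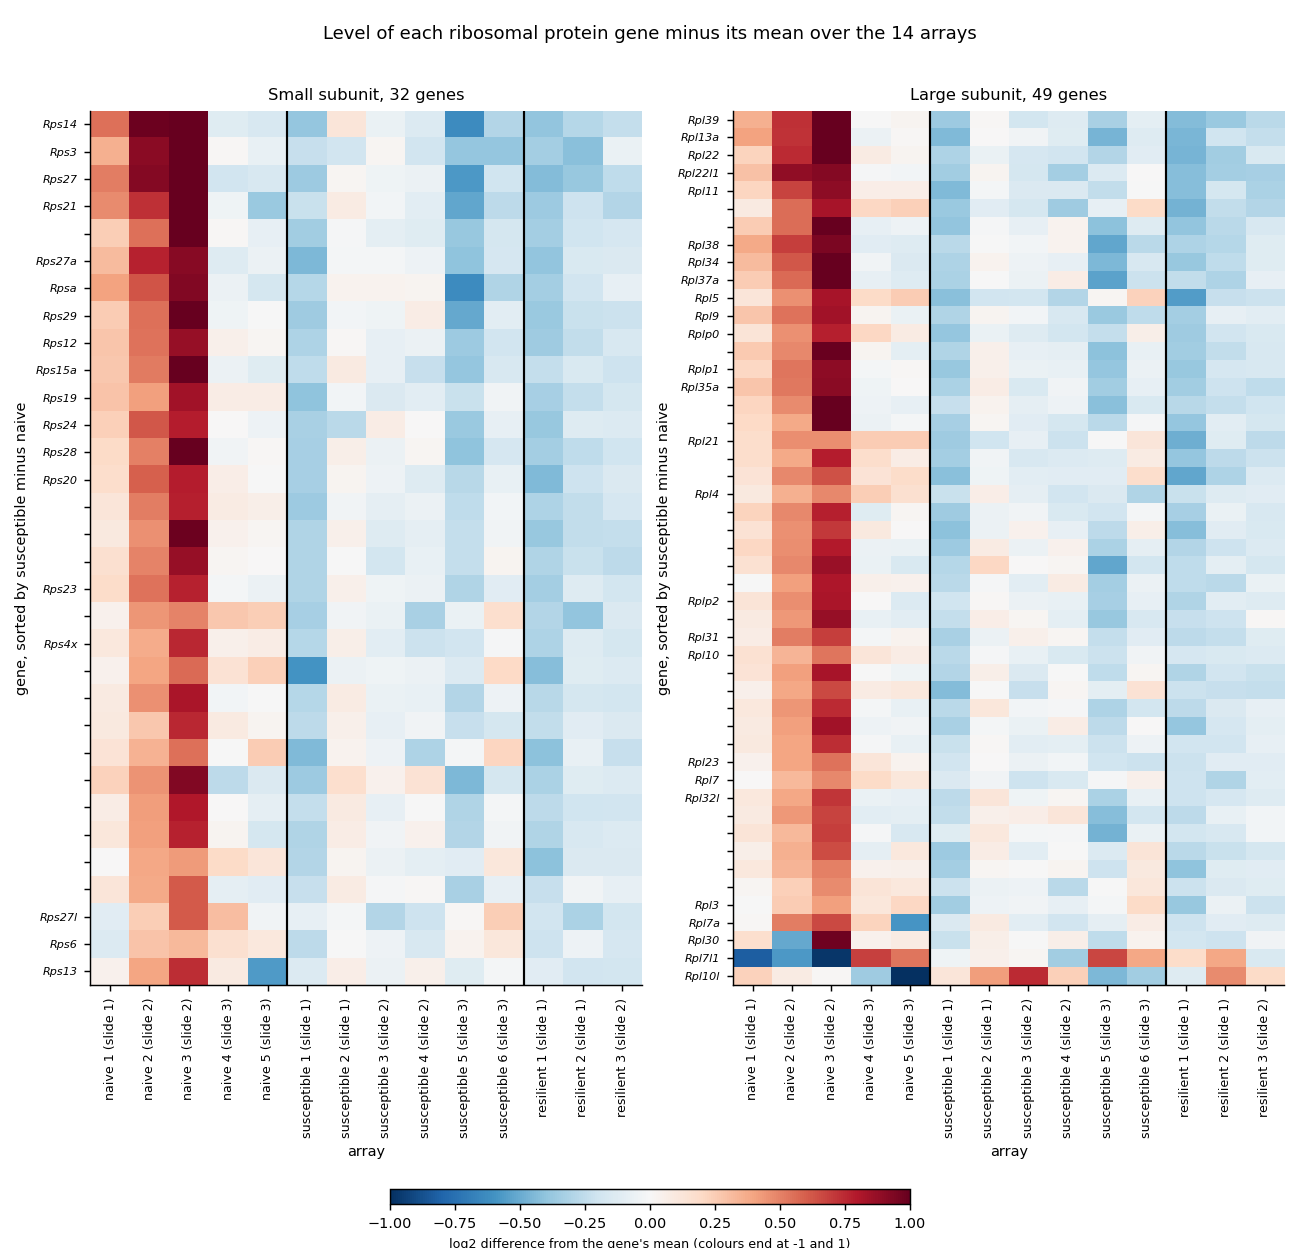
Log2 level of each of the 81 tested members minus its own mean over 14 arrays, with genes in rows (32 small subunit, 49 large subunit), mice in columns, and a colour scale that ends at −1 and 1; only members named in the text are labelled. Naive 1, 2 and 3 are above the mean for nearly all members (76, 79 and 80 of 81), and the resilient mice below it for nearly all.

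In susceptible mice 2 ribosomal protein genes, both of the large subunit, were lower than in naive mice and 0 were higher (limma over all genes, adjusted p under 0.05). Among all genes tested, 0.941% were called lower in that fit and 1.54% higher, against which 2 of 81 members (2.47%) is not read as a result about the family. Nearly all differences had the same sign: 79 of 81 members had a negative difference (47.1% of all genes), 70 had an unadjusted p under 0.05 (23.9% of all genes, in either direction), and the median was −0.41 log2 (small subunit −0.44, large subunit −0.38, range −0.70 to 0.37), against a median of 0.018 over all genes tested. Every susceptible mouse lay below every naive mouse for 10 of 81 members (among them Rpl4, Rpl10, Rpl11, Rpl21, Rpl22, Rpl23, Rplp0, Rps12 and Rps19), against 1.67% of all genes. The count of 2 calls depended on single mice: it was 17 without naive 5, 11 without susceptible 6, 1 without naive 1 or resilient 3, and 0 without any 1 of the other 10 mice. For fits that leave out 1 mouse, here and below, the share of all genes called is not given. Their counts describe only how far the calls depended on single mice and are not read as results about the family.

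Naive and susceptible mice shared each slide, and slide was therefore entered as a block. In that fit 55 of 81 members were lower in susceptible mice (21 small subunit, 34 large subunit) and 0 higher, beside 6.53% of all genes called lower and 8.63% called higher; the median difference was −0.40. Within slides the median was −0.32 on slide 1 (77 of 81 members negative), −0.71 on slide 2 (79 negative) and −0.18 on slide 3 (78 negative), where the medians over all genes were 0.064, −0.015 and 0.024. The 55 calls became 14 without susceptible 4, 20 without susceptible 5, 21 without naive 1, 27 without susceptible 3, and 31 without naive 2 or without susceptible 1, and stayed between 37 and 73 without any 1 of the others. Without both naive 2 and naive 3, 0 members were called with or without the slide block (0.083% and 0% of all genes were called lower), 37 and 18 of 81 had an unadjusted p under 0.05 (22.1% and 14.03% of all genes), and the median was −0.23 and −0.19, with 77 and 78 of 81 members negative. Scan day in place of slide gave 57 lower (7.34% of all genes). Adding array brightness as a covariate gave a median of −0.33 with 14 members called lower (4.12% of all genes) and 1, Rpl10l, called higher (5.93%). Quantile normalization brought the median to −0.15, with 3 members lower (Rpl22, Rpl39 and Rps19, beside 1.22% of all genes) and 8 of 81 differences positive.

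**Figure D3:**
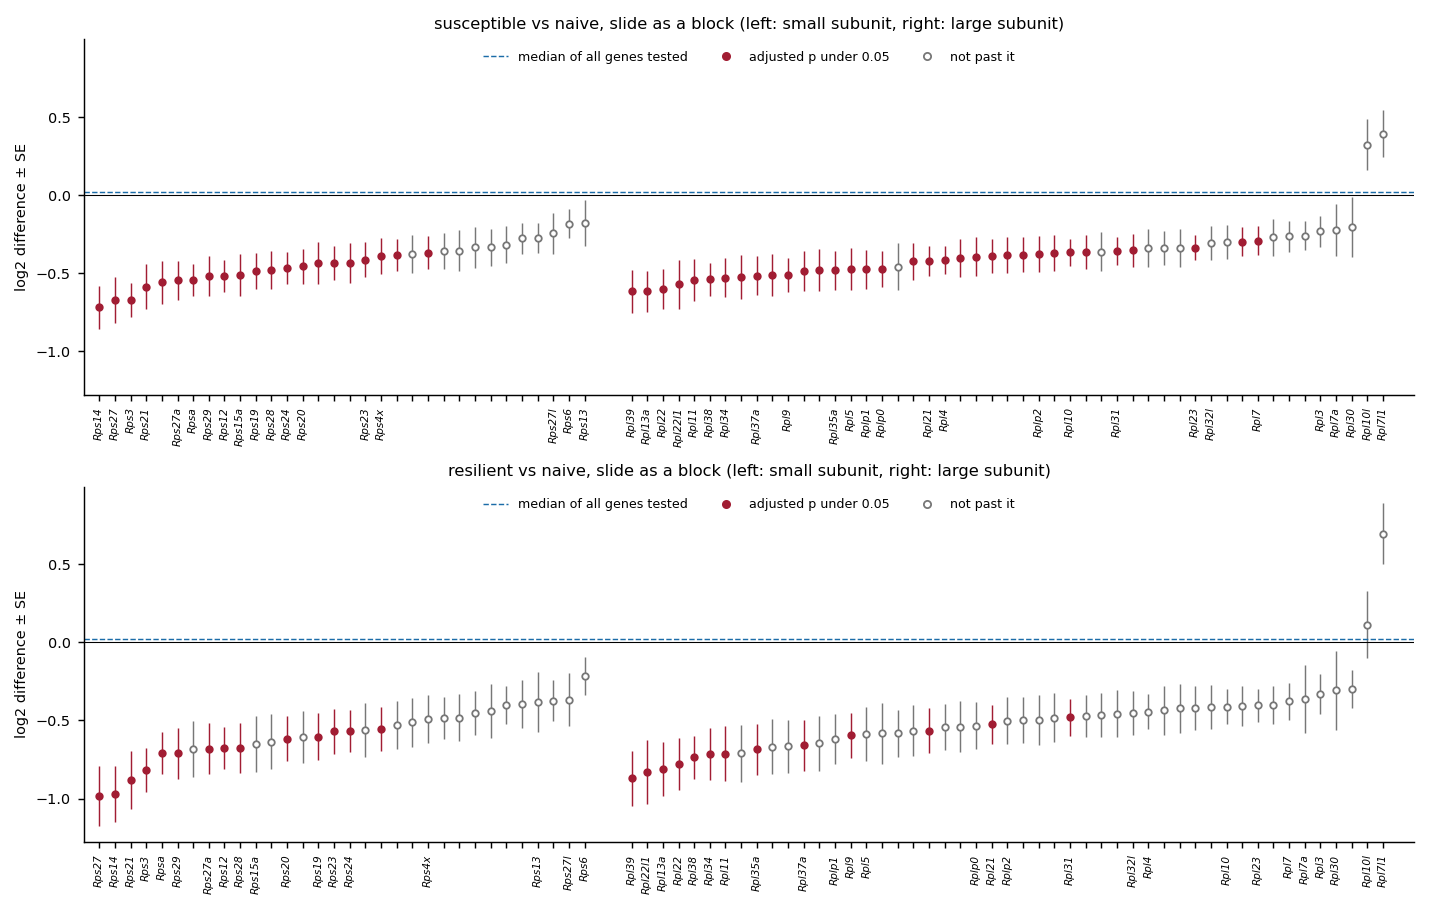
Log2 difference from naive mice of each member, with slide as a block, in susceptible and resilient mice (point, estimate; line, 1 SE); filled red points have an adjusted p under 0.05 and the dashed line is the median of all genes tested (labels: members named in the text). Of 81 members, 55 were called lower in susceptible mice and 27 in resilient mice, and the 2 members with positive estimates are Rpl7l1 and Rpl10l.

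**Figure D4:**
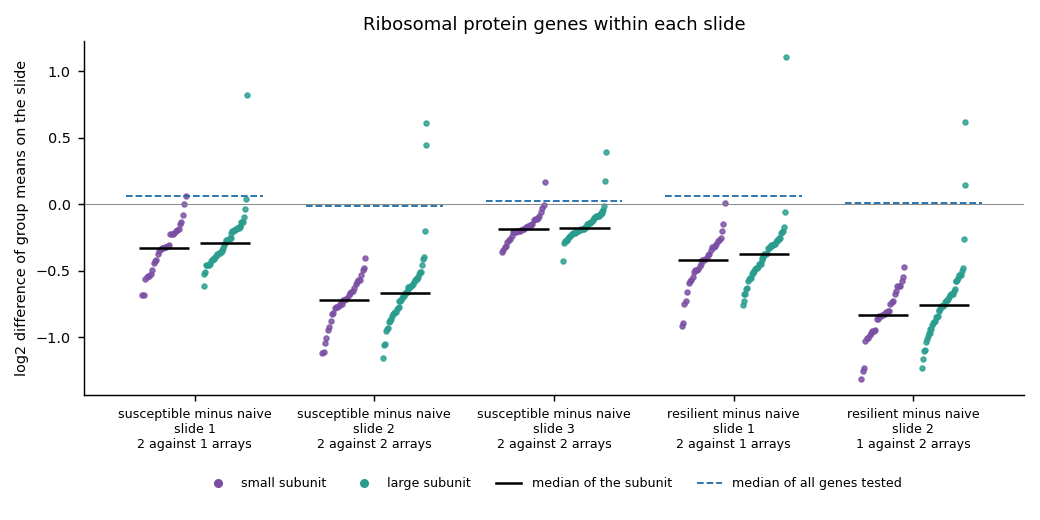
Log2 difference from naive mice of each member within each slide, 1 point per gene, with the medians of the small and large subunit genes and of all genes tested. The differences are largest on slide 2, with family medians of −0.71 in susceptible and −0.80 in resilient mice, and smallest on slide 3, with −0.18 in susceptible mice.

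Rpl4, a large subunit protein that lines the tunnel through which the new peptide leaves, was lower in susceptible mice. Its level was 6.33, 6.60, 6.72, 6.49 and 6.40 in naive 1 to 5, 5.93 to 6.31 with a median of 6.07 in susceptible mice, and 6.01, 6.11 and 6.13 in resilient mice. Susceptible and naive mice did not overlap, with the highest susceptible value just below naive 1. The difference was −0.42 ± 0.094 log2 (SE), with adjusted p = 0.0383, and −0.41 with adjusted p = 0.0141 with slide as a block. The resilient difference of about the same size, −0.42, had adjusted p = 0.0967 (0.0508 with slide as a block). The susceptible calls without a block, of Rpl4 and of Rpl21 below, were absent in most fits that left out a single mouse. They were also absent under another background correction and with only the compared groups in the fit.

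Rpl21, another protein of the large subunit, was at 6.40, 6.69, 6.69, 6.48 and 6.48 in naive mice, 5.87 to 6.35 with a median of 6.08 in susceptible mice, and 5.73, 6.11 and 5.97 in resilient mice. No susceptible or resilient mouse reached the lowest naive mouse. The susceptible difference was −0.45 ± 0.11 (SE) with adjusted p = 0.0440. This call belongs to the brightest of its 3 probes: the other probes, with mean levels of −1.08 and −1.41, had differences of 0.043 and −0.077, and averaging all 3 gave −0.16 with adjusted p = 0.415.

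The stalk of the large subunit, which recruits the elongation factors, is built from Rplp0 as its base and from the acidic proteins Rplp1 and Rplp2. Rplp0 was at 7.39, 7.72, 8.04, 7.47 and 7.34 in naive mice, 6.88 to 7.32 (median 7.11) in susceptible and 6.91, 7.07 and 7.11 in resilient mice, so that neither defeated group overlapped the naive mice. Its susceptible difference of −0.49 had adjusted p = 0.0567, and adjusted p = 0.0229 with slide as a block. Rplp1 and Rplp2 differed by −0.48 and −0.38 (adjusted p = 0.0964 and 0.141), and with slide as a block by −0.47 and −0.38 (adjusted p = 0.0281 and 0.0443). In resilient mice 0 of the 3 stalk genes was called, with block differences of −0.53, −0.62 and −0.50 and adjusted p between 0.0526 and 0.0706.

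Rpl5 and Rpl11 bind the 5S rRNA and, when free of ribosomes, the p53 regulator Mdm2. Both were lower in susceptible mice once slide was a block, with a difference of −0.47 for Rpl5 (adjusted p = 0.0344) and −0.54 for Rpl11 (adjusted p = 0.0240). Rpl11 was also lower in resilient mice (−0.71, adjusted p = 0.0463), where Rpl5 differed by −0.59 (adjusted p = 0.0672). Without a block, neither was called in either group.

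In the small subunit the widest differences in susceptible mice, with and without the slide block, were those of Rps14, Rps27 and Rps3; in resilient mice with the block Rps21 (−0.88, adjusted p = 0.0353) came before Rps3. Rps14, needed for maturation of the small subunit, was at 9.80, 10.23, 10.31, 9.12 and 9.09 in naive mice, 8.62 to 9.36 (median 9.03) in susceptible mice, and 8.85, 8.96 and 9.01 in resilient mice. Naive 1, 2 and 3 stood apart, and naive 4 and 5 lay inside the susceptible range. The susceptible difference was −0.70 ± 0.22 (SE, adjusted p = 0.0876) without a block and −0.72 ± 0.14 (SE, adjusted p = 0.0107) with slide as a block, and the resilient difference with the block was −0.97 (adjusted p = 0.0294). Rps27, a zinc-binding protein, was at 8.76, 9.16, 9.45, 8.05 and 8.08 in naive mice, 7.67 to 8.26 (median 8.12) in susceptible and 7.81, 7.86 and 7.99 in resilient mice, with the same split among the naive mice. Blocked by slide, its difference was −0.67 in susceptible mice (adjusted p = 0.0158) and −0.98 in resilient mice (adjusted p = 0.0296).

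Rps3, which sits at the mRNA entry of the small subunit and also has a role in DNA repair, was at 6.61, 7.16, 7.28, 6.27 and 6.18 in naive mice, 5.87 to 6.28 (median 6.05) in susceptible and 5.92, 5.84 and 6.19 in resilient mice. Its block difference was −0.67 in susceptible mice, with the smallest adjusted p of the family, 0.00729, and −0.82 in resilient mice (adjusted p = 0.0294). A second, dimmer Rps3 probe (mean level 2.23, above background on all 14 arrays) had differences of −0.12 and −0.18 without a block, against −0.67 and −0.72 for the probe used. Rpsa, also known as the laminin receptor precursor, was at 8.99, 9.22, 9.52, 8.53 and 8.41 in naive mice, 7.96 to 8.62 (median 8.46) in susceptible and 8.25, 8.40 and 8.50 in resilient mice. Its differences were −0.54 (adjusted p = 0.0108) and −0.71 (adjusted p = 0.0296) with slide as a block, and naive 5 overlapped both defeated groups.

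Rps6, the substrate of the S6 kinases downstream of mTOR complex 1, was among the 26 members that did not pass the test in susceptible mice with slide as a block. Its level was 6.05, 6.47, 6.51, 6.34 and 6.29 in naive mice, 5.92 to 6.30 (median 6.16) in susceptible and 5.98, 6.13 and 6.02 in resilient mice, and the susceptible mice overlapped naive 1 and naive 5, the resilient mice naive 1. The block differences were −0.18 (adjusted p = 0.182) and −0.21 (adjusted p = 0.272). Rps13 and Rpl30 were less even among naive mice than most members, with Rps13 at 5.93 in naive 5 against 6.54 to 7.24 in the other naive mice, and Rpl30 at 5.89 in naive 2 against 6.45 to 7.37; their block differences of −0.18 and −0.20 were not called. The susceptible difference of Rps13 turned positive under quantile normalization (0.039) and without naive 2 and naive 3 (0.11); Rpl7a, at 6.03 in naive 5 against 6.63 to 7.28 in the other naive mice, turned positive in the same fits.

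In resilient mice 0 members were called without a block, beside 0.0623% of all genes called lower, while 70 had an unadjusted p under 0.05, beside 20.2% of all genes. The median difference from naive mice was −0.50 log2 (small subunit −0.54, large subunit −0.48), with 79 of 81 members negative, against 0.018 over all genes. Every resilient mouse lay below every naive mouse for 60 of 81 members (24 small subunit, 36 large subunit), against 6.55% of all genes. The comparisons of susceptible and of resilient mice use the same 5 naive mice, so their likeness is not independent.

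With slide as a block, 27 of 81 members were lower in resilient mice (14 small subunit, 13 large subunit) and 0 higher, beside 1.49% of all genes called lower and 1.87% higher, with a median of −0.54. The medians were −0.41 on slide 1 and −0.80 on slide 2, each with 79 of 81 members negative; slide 3 held no resilient mouse. Among the called genes were Rpl9, Rpl11, Rpl13a, Rpl21, Rpl22, Rpl22l1, Rpl31, Rpl34, Rpl35a, Rpl37a, Rpl38, Rpl39, Rpsa, Rps3, Rps12, Rps14, Rps19, Rps20, Rps21, Rps23, Rps24, Rps27, Rps27a, Rps28 and Rps29. Scan day in place of slide gave 62 lower and 1 higher (Rpl7l1), beside 4.07% and 5.96% of all genes, and array brightness as a covariate gave 31 lower beside 3.08%. The 27 calls fell to 0 without any 1 of naive 1, naive 2, susceptible 2, susceptible 5, resilient 1 and resilient 3, to 4 without resilient 2, to 9 without naive 4 and to 16 without naive 3 or susceptible 3, and rose to 62 without susceptible 6. Without both naive 2 and naive 3, 0 members were called (56 at an unadjusted p under 0.05 with slide as a block and 37 without, beside 17.0% and 14.03% of all genes), and the median was −0.33 with the block and −0.28 without. Quantile normalization left 0 called, beside 0.118% of all genes called lower, and 40 at an unadjusted p under 0.05, beside 21.4% of all genes, with a median of −0.21.

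Between susceptible and resilient mice 0 of 81 members were called and 0 had an unadjusted p under 0.05, and 0 of 14451 genes were called (0%). The median was 0.093 log2 (0.14 with slide as a block) against 0.0090 over all genes, with 78 of 81 differences positive. Among the widest differences were those of Rpl22l1 (0.21 ± 0.20, SE) and Rpl5 (0.19 ± 0.17). With 3 resilient mice, differences of this size were within the spread between mice.

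To see which members departed from the family, each array was centred on the family median and the fit repeated. This removes 1 constant per array and leaves any difference between arrays that depends on signal intensity. The family being lower in defeated mice, most other genes then shifted upward (17.2% of genes called higher and 0.221% lower in susceptible mice; 22.5% and 0.104% in resilient mice). In susceptible mice 0 members were called (8 at an unadjusted p under 0.05, beside 42.4% of all genes), and in resilient mice 1, Rpl10l, was (0.85 ± 0.29, SE, adjusted p = 0.0484; 5 members at an unadjusted p under 0.05, beside 46.0% of all genes). Rpl10l entered the test only through the defeated groups, so its call is not read as a departure from the family, and it was absent without any 1 of naive 2, naive 3, susceptible 1, susceptible 2, susceptible 4 and the 3 resilient mice, and 3 members were called without naive 4. The susceptible count was 6 without naive 4 or naive 5, and 1 without naive 1 or susceptible 6.

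With slide as a block, 7 members fell below the family in susceptible mice, beside 0.823% of all genes called lower: Rps14 (−0.41, adjusted p = 0.0119), Rps27 (−0.36, 0.0178), Rps3 (−0.36, 0.0268), Rpl39 (−0.31, 0.0255), Rpl13a (−0.31, 0.0211), Rpl22 (−0.29, 0.0377) and Rpsa (−0.23, 0.0473). In resilient mice 6 did, beside 0.415% of all genes: Rps27 (−0.55, adjusted p = 0.0141), Rps14 (−0.54, 0.0142), Rps21 (−0.45, 0.0257), Rpl39 (−0.43, 0.0192), Rpl13a (−0.37, 0.0255) and Rpl38 (−0.30, 0.0477). Rpl39 is a short protein at the peptide exit tunnel, Rpl13a also belongs to a complex that silences inflammatory mRNAs, and Rpl22 binds RNA and is dispensable for translation in many cells. Without a block, an Rpl39 probe of similar level (6.43 against 6.45) differed by −0.45 in susceptible and −0.60 in resilient mice. The probe used differed by −0.62 and −0.80, and a dim Rpl39 probe by −0.63 and −0.90. In susceptible mice the other Rpl13a probes differed by −0.52 and −0.50, against −0.61, and those of Rpsa by −0.49, −0.43 and −0.46, against −0.53. All Rps27 probes differed by −0.65 to −0.72 in susceptible mice. The dimmer probes of Rps3 and Rpl22 differed by only −0.12 and −0.16 in susceptible mice, against −0.67 and −0.61 for the probes used. Both dimmer probes fell less than the family median of −0.41, so these 2 departures rest on the probe used. The departures were not tested with another single probe. The naive mice differed among themselves in these genes. Rps14 lay 2.74, 2.91, 2.70, 2.20 and 2.08 above the family median in naive 1 to 5, between 1.91 and 2.35 (median 2.20) in susceptible mice and at 2.19, 2.15 and 2.20 in resilient mice, so that only naive 1, 2 and 3 lay outside the range of the defeated mice. Rps27 showed the same split, at 1.70, 1.84 and 1.84 in naive 1, 2 and 3, 1.13 and 1.08 in naive 4 and 5, 0.96 to 1.30 in susceptible and 1.06 to 1.18 in resilient mice. Naive 4 and 5 are the naive arrays of slide 3. Naive 1, 2 and 3 were also the dimmest of all arrays. Their 75th percentiles were 7.30, 7.35 and 7.24, against 8.53 and 8.63 in naive 4 and 5. Departures were not tested with brightness as a covariate or under quantile normalization. With slide as a block 9 departures in either direction were called in susceptible mice, 2 without naive 1, 4 without naive 2 or without susceptible 4, and 16 without susceptible 6. In resilient mice 7 were called, 3 without naive 1 or resilient 1, 4 without naive 2, 0 without resilient 3 and 12 without susceptible 6. Without naive 2 and naive 3, 0 were called in either group (3 and 4 at an unadjusted p under 0.05), beside 0.00692% and 0% of all genes called lower.

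**Figure D5:**
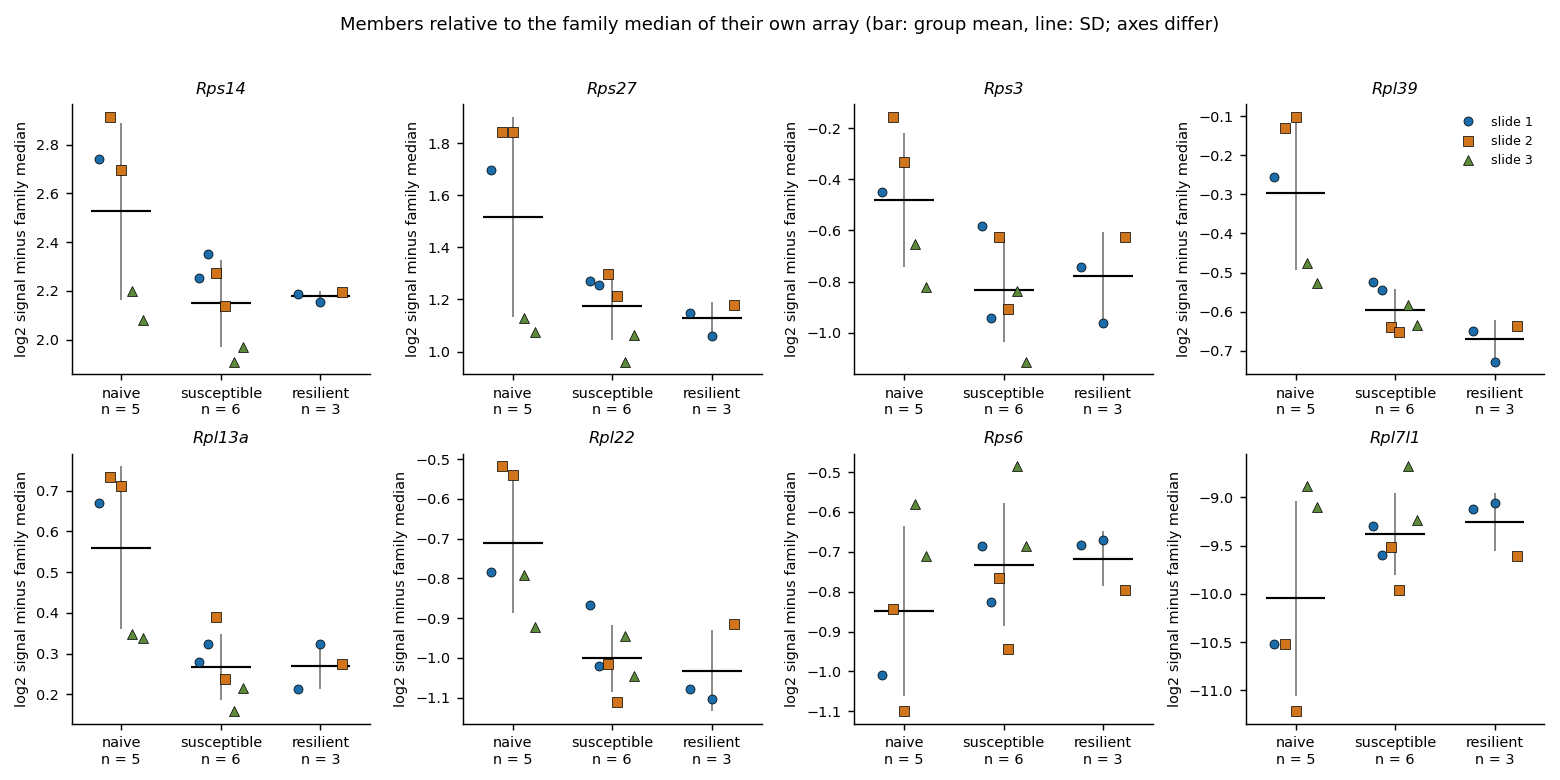
Log2 level of 8 members relative to the family median of the same array, by group, with 1 point per mouse. For Rps14 and Rps27, naive 1, 2 and 3 lie above all other mice, while Rpl7l1 is lowest in the same 3 mice.

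Among the tested paralogues, only Rpl10l and Rpl7l1 had positive differences from naive mice over all arrays. Both entered the tests only through the defeated groups, so this is not read as a trait of paralogues. Rpl10l, an intronless relative of Rpl10 known mainly from testis, was at −2.93, −3.07, −3.14, −3.51 and −4.38 in naive mice, between −3.60 and −2.40 in susceptible mice and at −3.28, −2.68 and −2.96 in resilient mice. Its differences of 0.37 and 0.43 were not called, and the groups overlapped. Rpl7l1, a nucleolar relative of Rpl7, was at −3.46, −3.21, −3.61, −1.95 and −2.10 in naive mice, between −2.99 and −1.97 in susceptible and at −2.45, −2.25 and −2.79 in resilient mice, lowest in naive 1, 2 and 3, where the rest of the family was highest. Relative to the family it was higher with slide as a block by 0.70 (adjusted p = 0.0185) in susceptible and 1.13 (adjusted p = 0.0134) in resilient mice, as was Rpl10l by 0.63 (adjusted p = 0.0190) in susceptible mice, beside 42.8% and 46.1% of all genes called higher on that scale. Both genes are dim, both passed the background filter through the defeated groups, and the susceptible difference of each turned negative under another background correction (−0.037 for Rpl10l and −0.13 for Rpl7l1).

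Of the brighter paralogues 1, Rpl22l1, was called lower with slide as a block. Rpl22l1, which can replace Rpl22, was at 6.28, 6.87, 6.90, 5.97 and 5.96 in naive mice, and Rpl22 at 6.27, 6.80, 7.07, 6.13 and 6.08. In that fit Rpl22l1 was lower, at −0.57 in susceptible (adjusted p = 0.0334) and −0.83 in resilient mice (adjusted p = 0.0472), and so was Rpl22, at −0.60 (adjusted p = 0.0150) and −0.78 (adjusted p = 0.0360). Rps27l, a p53-induced relative of Rps27, differed by −0.24 and −0.37 (adjusted p = 0.205 and 0.192) and on slide 1 alone by 0.058 in susceptible mice, and Rpl32l by −0.31 and −0.45 (adjusted p = 0.0702 and 0.0798). Of the partners, Rpl10, Rpl7, Rps4x and Rpl39 were lower in susceptible mice with slide as a block (−0.37, −0.29, −0.39 and −0.62, adjusted p between 0.0160 and 0.0481), and Rpl3 was not called (−0.23, adjusted p = 0.12). Rpl10's difference was 0.0017 under quantile normalization.

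Probes of 1 gene mostly had the same sign but could differ in size. In 51 genes with several probes above background (135 probes), all probes were lower in susceptible mice for 48 and in resilient mice for 49. The sign differed between probes in susceptible mice for 3 genes, Rpl21 and Rps15a among them. The range between probes of a gene had a median of 0.11 and was largest for Rps15a, 0.64 log2. In 12 of the 51 genes the smallest probe difference in susceptible mice was under 50% of the largest in size, and in resilient mice this held for 8. Among them were Rpl22, whose dimmer probe differed by −0.16 in susceptible mice against −0.61 for the probe used, and Rpl30, whose 3 probes differed by −0.21, −0.43 and −0.031.

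Ribosomal subunits whose symbols fall outside the family's naming were measured too. All 4 tested (Rack1, Fau and Rpl36al among them; Rps27rt had no probe) had negative differences, with medians of −0.33 in susceptible and −0.42 in resilient mice. Rack1, a signalling scaffold on the small subunit, was at 7.41, 7.81, 8.01, 7.46 and 7.42 in naive mice, with all susceptible (6.90 to 7.24) and resilient mice (6.87, 6.96 and 7.11) below. Its difference in susceptible mice was −0.51 without a block (adjusted p = 0.0420). After blocking by slide Rack1 was lower in both groups (susceptible −0.49, adjusted p = 0.0150; resilient −0.60, adjusted p = 0.0403).

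Other genes of the translation machinery had smaller or positive median differences. Of 19 translation factors 0 were called without a block, with medians of −0.10 and −0.14; with slide as a block Eef1a1 and Eef1b2, elongation factors that also carry TOP tracts, were lower in susceptible mice (−0.29 and −0.44, adjusted p = 0.0342 and 0.0346), beside the 6.53% given above. Of 31 ribosome biogenesis genes, which make rRNA and assemble subunits in the nucleolus, 27 had positive differences in susceptible mice, with a median of 0.14, and 1, the rRNA methyltransferase Nop2, was higher without a block. Nop2 was at 1.78, 1.53, 1.53, 1.79 and 1.97 in naive mice, 1.94 to 2.44 in susceptible mice and 2.31, 1.96 and 2.16 in resilient mice, with 1 susceptible and 1 resilient mouse overlapping the naive mice, and its susceptible difference was 0.48 ± 0.11 (SE, adjusted p = 0.0424). With slide as a block 5 were higher in susceptible mice (Nop2, Polr1b, Wdr12, Rrn3 and Tsr1, by 0.25 to 0.50, adjusted p between 0.0159 and 0.0458) beside 8.63% of all genes, and Tsr1 in resilient mice (0.45, adjusted p = 0.0387), beside 1.87% of all genes. Of 16 mTOR pathway genes 0 were called without a block. In the slide-blocked fit the stress-induced mTOR complex 1 inhibitors Sesn1 (0.52, adjusted p = 0.0111) and Ddit4 (0.67, adjusted p = 0.0344) and the complex subunit Mlst8 (0.32, adjusted p = 0.0400) were higher in susceptible mice, and Sesn1 in resilient mice (0.62, adjusted p = 0.0354), against the same shares of all genes.

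Some cell type markers moved with the groups. The summed level of the 5 meningeal fibroblast markers ranged from 3.74 to 4.95 in naive, 2.41 to 4.52 in susceptible and 2.66 to 4.58 in resilient mice, with 5 of 5 differences negative and 0 called. The 5 astrocyte markers ranged from 5.62 to 6.10, 5.40 to 5.79 and 5.32 to 5.62, with 5 of 5 negative. The oligodendrocyte markers ranged from 5.37 to 7.17, 5.05 to 5.86 and 5.10 to 6.22, with 4 of 5 negative. The 5 cortical excitatory neuron markers ranged from 5.88 to 6.59, 5.51 to 6.21 and 5.71 to 5.94, with medians of −0.18 and −0.38 and 3 of 5 negative in each defeated group. Neuron markers ranged from 8.24 to 8.48, 8.08 to 8.56 and 8.49 to 8.56, and microglia markers from 5.53 to 6.22, 5.75 to 6.06 and 5.75 to 5.96. Inhibitory neuron markers ranged from 5.88 to 6.203, 6.22 to 6.58 and 6.07 to 6.74, and endothelial markers from 4.52 to 5.05, 4.42 to 4.94 and 4.05 to 5.03. Of the endothelial markers Slco1a4 was lower in susceptible mice without a block, beside 0.941% of all genes called lower. Of 5 leukocyte markers 3 were tested, while Ngp and Retnlg did not pass the background filter. The summed levels of the leukocyte markers were −1.42 to −0.50, −0.31 to 2.67 and −0.32 to 0.96. Of the 3 tested, S100a8 and S100a9 were higher in susceptible mice. Only 1 of the 3 was above background on every array, so at least 1 of these calls concerns a gene near background in some mice. S100a8 lay at −6.37 to −4.82 in naive mice. The sizes of the leukocyte differences, that of Camp below included, are therefore not read as results. Of 5 erythroid markers 3 were tested, with summed levels of 0.030 to 1.85, 0.77 to 3.95 and 0.82 to 3.34 and medians of 1.45 and 0.86, and Hbb-b1 and Alas2 did not pass the filter. With slide as a block, susceptible mice were lower for the further markers Neurod6, Aldh1l1, Mog and Flt1 (−0.75 to −0.30, adjusted p between 0.0326 and 0.0483), beside 6.53% of all genes. They were higher for Gad1, Sst, Camp and Hbb-bt (0.35 to 2.06, adjusted p between 0.0397 and 0.0491), beside 8.63% of all genes. In resilient mice these 8 had adjusted p between 0.0956 and 0.488 in that fit. Of the other markers tested, only Slco1a4, S100a8 and S100a9 were called in susceptible mice with the block. The part of these cell types in the family's difference was not tested.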

How the data were processed

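Expression was measured with 1-colour Agilent arrays in mPFC of 14 mice. Per the file headers, the deposited tables hold linear spot intensities from Agilent Feature Extraction 11.0.1.1 (header build mm9), whose processed signal is background-subtracted. The authors' deposited value table holds log2 values of the same arrays, equal to log2 processed signal minus 1 constant per array (r at least 0.999998; column medians −3.08 to −2.73), and was an alternative. Control and outlier spots were left out, and each array's 75th percentile of log2 signal was subtracted. Transcript accessions were matched without versions to RefSeq symbols. A gene was tested where a probe exceeded background on every array of 1 or more groups, and its brightest such probe was used. Genes were fitted with limma 3.58.1 in R 4.3.3 (lmFit, eBayes), over all 14 arrays and 3 groups without covariates, with Benjamini-Hochberg adjustment over 14451 genes and calls at adjusted p under 0.05. The code was tested on simulated data. Named genes were those called (all of them up to 12, otherwise the 6 largest), the 3 widest departures each way, stalk genes, Rpsa, Rps6 and paralogues with partners; Rpl5, Rpl11, Rpl30 and Rps13 and further called genes were added after their values were seen. Members, lists and rules were chosen with earlier results of these data known. Nothing ties mice to the independent experiments the labels mention, so p-values measure the spread between these mice. The number of arrays limits the precision. Values of a few ribosomal protein genes are not reported here.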

Additional observations from a re-analysis of the deposited data

How the results depend on the processing

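Every alternative tried kept the family's median difference from naive mice negative, in susceptible and in resilient mice. It moved by more than the spread between mice under quantile normalization (−0.15 and −0.21), on slide 2 alone (−0.71 and −0.80), on slide 3 alone (−0.18, susceptible) and without naive 2 and naive 3 (−0.19 and −0.28); leaving out 1 mouse gave −0.47 to −0.29 and −0.58 to −0.37.

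The count of members called in susceptible mice, 2, was 0 with normexp background correction, without the filter on dim probes, with only the 2 groups compared, on slide 1, 2 or 3 alone, and without naive 2 and naive 3 with or without slide as a block. It was 9 with the 75th percentile over probes above background, 5 with the mean of a gene's probes, 55 with slide as a block, 57 with scan day as a block, 7 with eBayes trend and robust settings, 15 with brightness as a covariate, 53 on scan day 1 alone (52 of them lower, beside 5.81% of all genes) and 0 to 17 without 1 mouse. In resilient mice the count of 0 became 27 with slide as a block, 63 with scan day as a block, 31 with brightness as a covariate, 68 on scan day 1 alone (67 lower, beside 4.71% of all genes) and 0 to 1 without 1 mouse. For the susceptible counts of 9, 5 and 7 the share of all genes called is not given. These counts are not read as results about the family.

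Replicate numbers were not taken as pairs, because the labels do not say that they pair mice. Deviations of same-numbered mice correlated between −0.38 and 0.71 over 11 pairs (median 0.28), and of 52 other pairs between −0.57 and 0.65 (median 0.0024). These values do not decide whether mice were paired. With the replicate block 41 members were lower in susceptible and 44 in resilient mice (6.29% and 2.34% of all genes). Departures from the family numbered 3 and 10 with it, against 0 and 1 without. For the counts of 3 and 10 the share of all genes called is not given, and they are not read as results about the family.

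Departures in susceptible mice were otherwise 1 with the family mean as centre or the mean of a gene's probes, 9 with slide as a block and 0 to 6 without 1 mouse. In resilient mice they were 0 with the subunit median as centre or without naive 2 and naive 3 (with or without slide as a block), 7 with slide as a block and 0 to 3 without 1 mouse.

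Of the genes named by the rule, some turned sign against naive mice (8 of all 81 members were positive in susceptible mice under quantile normalization, Rpl7a, at 0.0043, among them). In susceptible mice these were Rpl10 under quantile normalization (0.0017), Rpl10l and Rpl7l1 under normexp (−0.037 and −0.13), Rpl7l1 on slide 3 alone (−0.086) and without naive 2 and naive 3 (−0.013), Rps13 under quantile normalization (0.039), on slide 3 alone (0.17) and without naive 2 and naive 3 (0.11, and 0.069 with slide as a block), and Rps27l and Rps6 on slide 1 alone (0.058 and 0.0032). In resilient mice these were Rpl10l and Rps6 on slide 1 alone (−0.057 and 0.0062) and Rpl7l1 under normexp (−0.084). Between susceptible and resilient mice, where 0 members were called, 4 genes turned. Rpl10l was 0.0019 under quantile normalization, 0.21 with slide, 0.22 with scan day and 0.32 with replicate as a block, 0.096 and 0.30 on slides 1 and 2, 0.073 with brightness, 0.20 on scan day 1, 0.22 without naive 2 and naive 3 with slide as a block, and −0.21 to 0.088 without 1 mouse. Rpl5 was −0.024 on slide 2, and Rpl7l1 was 0.026 under quantile normalization and −0.16 to 0.11 without 1 mouse. Rpl9 was 0.0049 under quantile normalization, 0.0023 under normexp, 0.037 with the mean of its probes, 0.085 with slide, 0.12 with scan day and 0.16 with replicate as a block, 0.074 and 0.014 on slides 1 and 2, 0.058 with brightness, 0.061 on scan day 1, 0.066 without naive 2 and naive 3 with slide as a block, and −0.086 to 0.042 without 1 mouse. The causes of these changes were not tested. Fits with brightness, scan day 1 alone, or naive 2 and naive 3 left out were added after seeing the data. On slides alone, 1 or 2 mice per group limit the test.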
